A study of Mus musculus with 4 samples.

Results

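The genes described here encode MHC class I molecules and the proteins that load them with peptide. They were chosen by name, as 10 mouse genes: the heavy-chain genes H2-K1, H2-D1, H2-T22, H2-T23 and H2-Q4, the light-chain gene B2m, the loading genes Tap1, Tap2 and Tapbp, and the transactivator gene Nlrc5. The count table of 10716 genes held 8 of the 10, and H2-Q4 and Nlrc5 were not analysed here. Every gene of that table had more than 1 CPM (the count scaled by library size) in at least 2 of the 4 libraries, so all 8 had passed that level.

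RNA came from C57BL/6 mouse fetal livers at embryonic day 14.5, from erythroid cells sorted for the yellow fluorescence of the R26eYFP reporter. The knockout label covers 2 libraries (replicates 1 and 2), where Cre recombinase driven by the erythropoietin receptor gene Epor acts on Adar. The controls were 2 libraries labelled wild type (replicates 3 and 8). For the knockout-labelled pair the genotype is written as Epor-Adar / +, and whether 1 or both alleles of Adar were removed is not stated. The labels do not say whether the controls carried Cre, nor whether each library came from a separate embryo, so the p-values rest on the spread among the 4 libraries alone, which may be technical. The comparison asks how erythroid transcripts differ with loss of ADAR1, the enzyme encoded by Adar, which converts adenosine to inosine in double-stranded RNA.

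Class I molecules are a polymorphic heavy chain held together by beta-2 microglobulin, and they show peptides from inside the cell to cytotoxic T cells and natural killer cells. Peptides made by the proteasome are pumped into the endoplasmic reticulum by the TAP transporter, a pair of subunits encoded by Tap1 and Tap2, and tapasin, encoded by Tapbp, holds the empty molecule beside the transporter. Interferon raises transcription of these genes in most cell types. Class I promoters can hold interferon response elements, kappa B sites and a module bound by RFX, CREB and NF-Y proteins with NLRC5.

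Total counts ran from 28356401 to 44016809 per library, and 1 count corresponded to 0.0211 to 0.0363 CPM. Adar itself had 67.1 and 102 CPM under the knockout label and 50.9 and 46.9 CPM in the controls, so the gene-level count was not lower under the knockout label (log2 fold change 0.79, SE 0.25, edgeR adjusted p = 0.377). Exons outside a deleted segment still yield reads, so this value is no check of a deletion of part of the gene. In 3 of the 4 libraries the sex given in the labels was at odds with the counts of Y-linked genes. Erythroid identity genes were present in every library. Alas2, the erythroid enzyme of heme synthesis, had 3158 and 3890 CPM in the knockout-labelled pair and 4747 and 3164 CPM in the controls, and the erythroid transcription factor gene Klf1 had 204 and 520 CPM against 689 and 533 CPM (edgeR adjusted p = 0.464).

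The promoter elements are shown first, because several of the genes whose levels are compared below share them. RefSeq promoter windows of 250 bases before the gene start were found for 8 of the 10 genes, all but Tap2 and Nlrc5, and were placed on NCBIM37 by exact match. The windows were searched on both strands for an interferon response element in a full form (GAAA, any 2 bases, GAAA) and a shortened form (GAANNGAAA), and for a kappa B site (GGGA, any base, T, any 2 bases, CC). The first was in 2.98%, the second in 6.31% and the third in 3.44% of 32851 windows of all genes. The elements are printed 5′ to 3′ on the strand of the gene, with the bases that match a motif in capitals.
H2-K1: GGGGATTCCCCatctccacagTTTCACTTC
H2-D1: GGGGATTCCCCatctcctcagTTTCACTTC
H2-Q4: GGGATTTCCCatctccccagTTTCACTTC
H2-T22: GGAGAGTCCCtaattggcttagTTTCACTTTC
B2m: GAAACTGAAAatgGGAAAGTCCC
H2-T23: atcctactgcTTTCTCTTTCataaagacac

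In H2-K1 (chr17:34137374-34137403, minus strand, NCBIM37) and H2-D1 (chr17:35399868-35399897, plus strand) a kappa B match preceded a shortened interferon element. The stretches of 30 bases differed at 1 base, A18T, counted from 1 at the 5′ end with the H2-K1 base first. H2-Q4 (chr17:35516389-35516417, plus strand) and H2-T22 (chr17:36179869-36179900, minus strand) had the same order of motifs, H2-T22 with the full interferon element. In B2m (chr2:121973284-121973306, plus strand) the order was turned around, with the full interferon element first. H2-T23 (chr17:36169751-36169780, minus strand) had the full interferon element and no match to the kappa B letters, and its printed stretch includes 10 bases on each side of the match. The windows of Tap1 and Tapbp matched none of these 3 patterns. A STAT site (TTCNNNGAA) was also searched for and was found in 0 of the 8 genes, against 7.02% of all windows. An interferon element and a kappa B match stood in the same window in 5 of the 8 genes and in 0.344% of all windows. All of these genes but B2m are heavy-chain genes of similar sequence, so they are not separate matches to set against that share. In the gencode vM1 annotation the H2-D1 and H2-T23 elements overlap an exon of their gene, and the others lie outside the exons of their gene. A match is a description of letters and shows no binding.

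The longer context of the H2-K1 (chr17:34137299-34137478, minus strand) and B2m (chr2:121973223-121973402, plus strand) elements is given to show the spacing towards the gene start, from 200 to 21 bases before it.
H2-K1: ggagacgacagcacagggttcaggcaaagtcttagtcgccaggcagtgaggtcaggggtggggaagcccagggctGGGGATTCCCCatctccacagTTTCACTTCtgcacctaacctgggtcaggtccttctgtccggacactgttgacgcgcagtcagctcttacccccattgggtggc
B2m: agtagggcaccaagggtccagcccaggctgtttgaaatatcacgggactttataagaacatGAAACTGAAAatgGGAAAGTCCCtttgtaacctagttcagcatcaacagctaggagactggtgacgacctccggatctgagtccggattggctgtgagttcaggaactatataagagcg
Downstream of the capitals both windows hold the letters TGACG, the core of a cAMP response element, and further on ATTGG, which reads on the opposite strand as the box bound by the factor NF-Y. Of the 8 genes, 6 had TGACG on either strand, against 17.8% of all windows. The NF-Y box (read as ATTGG or its reverse complement) was found for 8, against 33.8% of all windows. H2-K1 has a further RefSeq start, and a gene with a match in any of its windows was counted once.

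Among the members, B2m, H2-D1 and Tap1 had the highest knockout-labelled levels relative to the controls, with fitted folds of 3.91, 2.97 and 8.72. H2-K1, Tap2 and Tapbp were also higher in each knockout-labelled library than in either control, by 2.12, 1.76 and 1.41 times. H2-T22 and H2-T23 overlapped between the groups. Groups did not overlap, with the knockout-labelled libraries higher, for 6 of the 8 genes, where 27.4% of all genes did so. Tap1 is counted here and below, although it stands in the table mainly through the knockout-labelled libraries. None of the 8 passed an adjusted p of 0.05 in edgeR's quasi-likelihood test, which called 0.103% of all genes as higher. At an unadjusted p below 0.05 there were 5 of 8 higher (H2-K1, H2-D1, B2m, Tap1 and Tap2), against 9.82% of all genes. None was lower at that level, where 2.08% of all genes were.

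**Figure D1:**
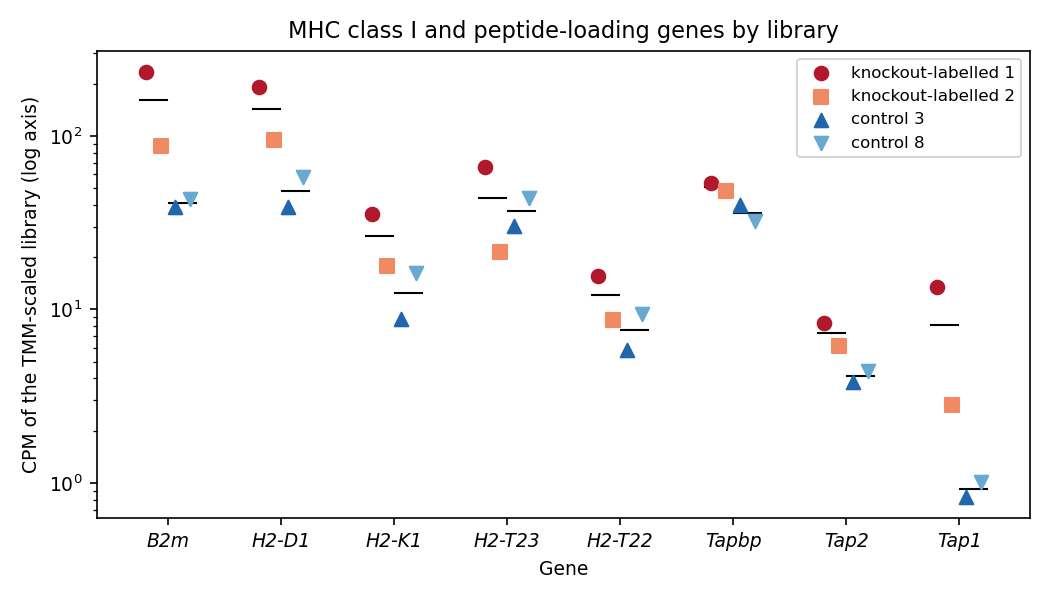
CPM of the TMM-scaled library (log axis) for the 8 measured genes, with 1 point per library and a black line at the mean of each group (n = 2). Knockout-labelled replicate 1 is the highest point for each of the 8 genes, and for H2-T23 knockout-labelled replicate 2 is the lowest.

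B2m (ENSMUSG00000060802, chromosome 2 of NCBIM37, 121973422 to 121978819, plus strand) encodes the light chain shared by all these molecules. The knockout-labelled libraries had 234 (replicate 1) and 87.6 CPM (replicate 2), and control replicates 3 and 8 had 38.8 and 43.4 CPM, with means of 161 ± 104 and 41.1 ± 3.28 (SD, n = 2 each). The controls lay close together, and the spread between the knockout-labelled libraries was larger than the lower one's distance from the controls. It did not pass the test, with a log2 fold change of 1.97, an SE of 0.46 and an edgeR adjusted p of 0.287.

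H2-D1 (ENSMUSG00000073411, chromosome 17, 35399675 to 35404444, plus strand) encodes a classical heavy chain. It had 192 and 95 CPM in the knockout-labelled pair and 39.0 and 57.7 CPM in the controls. Both knockout-labelled values were above both controls (log2 fold change 1.57, SE 0.39, edgeR adjusted p = 0.299). H2-K1 (ENSMUSG00000061232, chromosome 17, 34132962 to 34137278, minus strand), the other classical heavy chain, had 35.3 and 17.7 CPM against 8.77 and 16.1 CPM. Knockout-labelled replicate 2 was only slightly above control replicate 8 (log2 fold change 1.08, SE 0.44, edgeR adjusted p = 0.419).

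H2-T22 and H2-T23 encode nonclassical class I chains, H2-T22 a ligand of some gamma-delta T cells and H2-T23 a molecule read by inhibitory receptors of natural killer cells. H2-T22 (ENSMUSG00000056116, chromosome 17, 36174073 to 36179692, minus strand) had 15.5 and 8.68 CPM in the knockout-labelled pair and 5.87 and 9.38 CPM in the controls. Its groups overlapped (log2 fold change 0.66, SE 0.39, edgeR adjusted p = 0.462). H2-T23 (ENSMUSG00000067212, chromosome 17, 36166718 to 36169800, minus strand) had 66.7 and 21.4 CPM in the knockout-labelled pair, the highest and the lowest of the 4 values, and 30.2 and 43.9 CPM in the controls. Its fitted log2 difference of 0.25 had an SE of 0.52 and an edgeR adjusted p of 0.811.

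Tap1 (ENSMUSG00000037321, chromosome 17, 34324498 to 34334170, plus strand), 1 subunit of the peptide transporter, had 13.5 and 2.82 CPM in the knockout-labelled pair and 0.834 and 1.01 CPM in the controls. The control values were 23 and 48 counts, so Tap1 was the scarcest member there and stands in the table mainly through the knockout-labelled libraries. Its fitted log2 difference, at 3.12, was the highest of the members and had an SE of 0.77 and an edgeR adjusted p of 0.299. Tap2 (ENSMUSG00000024339, chromosome 17, 34340472 to 34353266, plus strand), its partner subunit, had 8.38 and 6.17 CPM against 3.84 and 4.39 CPM (log2 fold change 0.82, SE 0.31, edgeR adjusted p = 0.419). Counts of Tap1 per count of Tap2 were 1.61 and 0.458 in the knockout-labelled pair and 0.217 and 0.231 in the controls, so the ratio of the subunit transcripts was higher in both knockout-labelled libraries, and the controls lay closer together than the knockout-labelled pair.

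Tapbp (ENSMUSG00000024308, chromosome 17, 34052844 to 34066235, plus strand), the tapasin gene, had the smallest ratio between the knockout-labelled replicates. It had 53.8 and 48.1 CPM in the knockout-labelled pair and 39.8 and 32.5 CPM in the controls (log2 fold change 0.49, SE 0.21, edgeR adjusted p = 0.428). On NCBIM37 the genes Tap1, Psmb8 and Tap2 follow each other on the plus strand, with Psmb9 starting on the minus strand at the 5′ end of Tap1. The immunoproteasome genes Psmb8 and Psmb9 were not analysed here. Psmb10, a further immunoproteasome gene, had 8.22 and 12.7 CPM in the knockout-labelled pair and 12.7 and 18.3 CPM in the controls (log2 fold change -0.56, SE 0.32).

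The median log2 fold change of the 8 genes was 0.95, and that of all 10716 genes was 0.00 (-0.000773). Set against the mean of the controls, knockout-labelled replicate 1 had a members' median of 1.31 and replicate 2 one of 0.57. Replicate 1 was above replicate 2 for 8 of the 8 genes, which held for 49.6% of all genes, and the ratio ran from 1.12 for Tapbp to 4.77 for Tap1. Control replicate 8 was above control replicate 3 for 7 of the 8, against 53.4% of all genes, with Tapbp the exception.

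Each knockout-labelled library was also set against both controls alone, a fit that assumes the lone library varies like the controls. With replicate 2 alone, B2m was the 1 member called (log2 fold change 1.09, SE 0.17, edgeR adjusted p = 0.0131), where 1.29% of all genes were called higher. H2-D1 then had a log2 fold change of 0.97 (adjusted p = 0.19) and Tap1 1.60 (adjusted p = 0.141). H2-T23 turned to -0.79 (SE 0.26, adjusted p = 0.357). With replicate 1 alone, 7 of the 8 were called higher, all but Tapbp, where 17.3% of all genes were called higher. B2m then had 2.50 (adjusted p = 2.58e-05), Tap1 3.84 (adjusted p = 6.39e-05) and H2-T23 0.84 (adjusted p = 0.0301). The direction of H2-T23 thus differed between the knockout-labelled libraries, while B2m was above the controls with either library. Both fits reuse the same controls, so they are not separate support. For B2m the knockout-labelled values differed 2.67-fold, a wider spread than that of the controls.

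**Figure D2:**
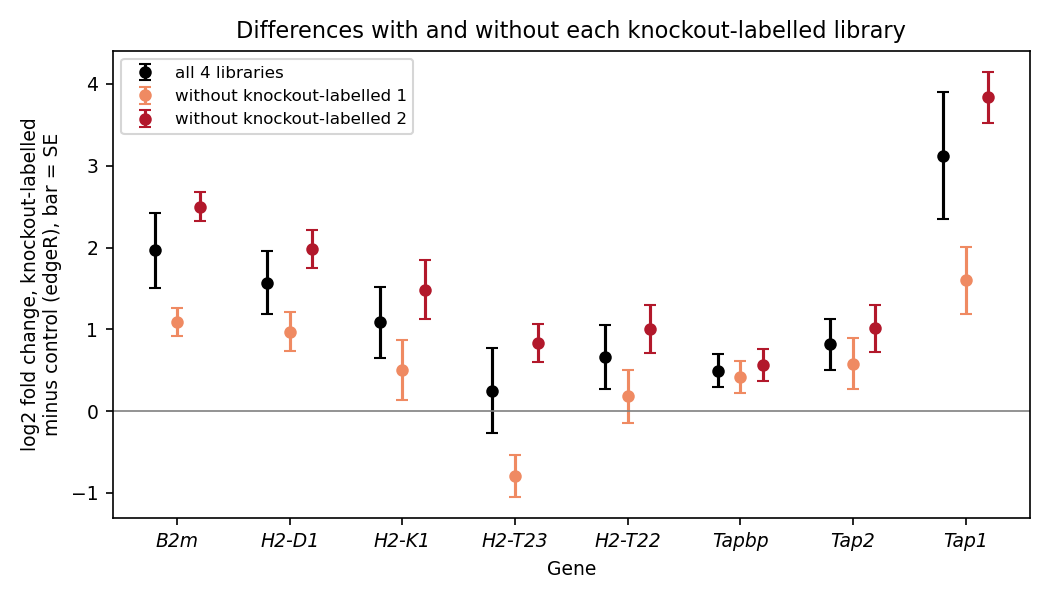
Log2 fold change of each gene (knockout-labelled minus control, edgeR, bars are the SE) with all 4 libraries and without each knockout-labelled library. B2m runs from 1.09 to 2.50 and stays above 0, and H2-T23 is -0.79 without replicate 1 and 0.84 without replicate 2.

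Other tools differed in how many members they called on the same 4 libraries. With DESeq2, and also with the likelihood ratio test of edgeR, 3 of the 8 were called, namely B2m, H2-D1 and Tap1, where these tests called 3.29% and 3.09% of all genes as higher. In DESeq2 the adjusted p values were 0.000613 for B2m, 0.00397 for H2-D1 and 0.000743 for Tap1. Limma-voom called 0 of the 8, with 0.0747% of all genes called higher and 5 members at an unadjusted p below 0.05. In the authors' deposited table the adjusted p was 0.384 for B2m and for H2-D1 and at least 0.44169 for the other members, and 8 genes of the table (0.0747%) were below 0.05. For each member this deposited value equalled that of the limma-voom fit to the digits given, so it is no separate result.

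The make-up of the heavy-chain members was compared as shares of the counts on the 4 measured ones, which no library scaling can change. H2-T24, another measured class I chain, is outside this total. It had 2270 and 2023 counts in the knockout-labelled pair and 1434 and 1953 in the controls. The shares below are therefore not those of all class I heavy chains. H2-D1 took 62.1% and 66.5% of these counts under the knockout label (replicates 1 and 2) and 46.5% and 45.4% in the controls (3 and 8). The Wilson 95% intervals were 61.1% to 63.0%, 65.3% to 67.7%, 44.5% to 48.6% and 44.1% to 46.7%, for counting error only. The means were 64.3% ± 3.16 and 46.0% ± 0.794 (SD, n = 2 each), a difference of 18.3 percentage points, which was larger than the spread within either group. H2-T23 took 21.5% and 15.0% in the knockout-labelled pair and 36.0% and 34.5% in the controls, and its share was lower in both. H2-K1 took 11.4% and 12.4% against 10.5% and 12.7%, which overlapped, and H2-T22 took 5.01% and 6.08% against 7.01% and 7.38%. With 2 libraries against 2, an exact two-sided permutation test cannot go below p = 0.333, so these shares are given without a call. Leaving out 1 library at a time, an alternative chosen after the data were seen, the H2-D1 difference was 16.1 to 20.6 percentage points.

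The light chain was higher relative to the measured heavy-chain members as well, with H2-T24 again left out. There were 0.756 and 0.613 B2m counts per heavy-chain count in the knockout-labelled pair and 0.463 and 0.342 in the controls, with means of 0.685 ± 0.101 and 0.402 ± 0.0856 (SD, n = 2 each). These ratios did not overlap, and the difference of 0.283 was larger than either SD.

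**Figure D3:**
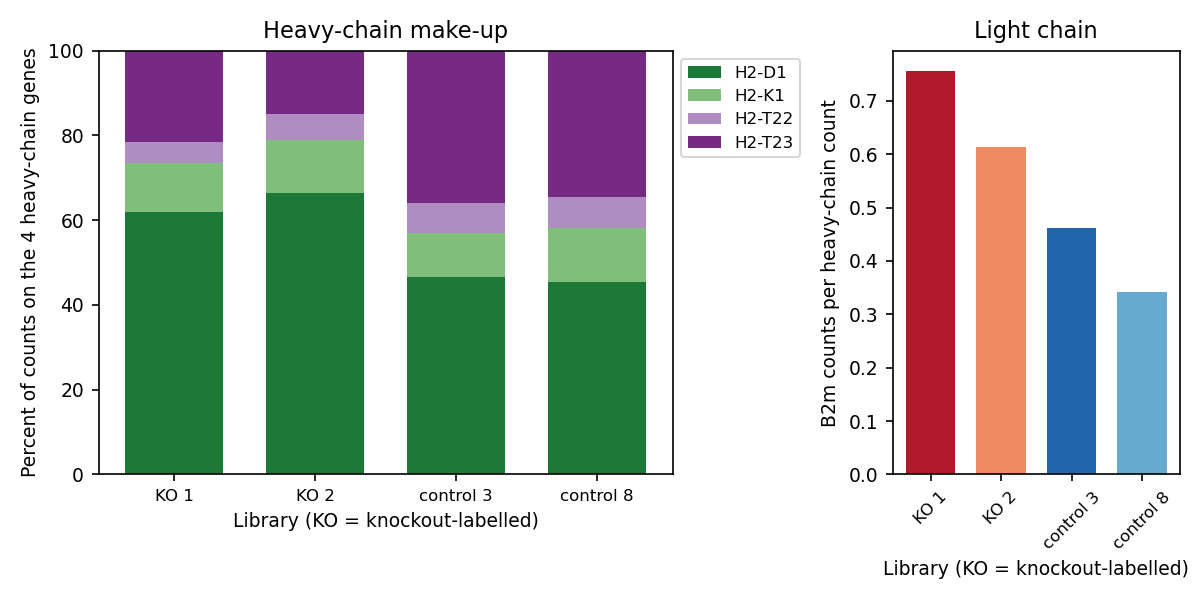
Left, the percent of counts on the 4 measured heavy-chain members (H2-T24 left out) taken by each gene in each library. Right, B2m counts per heavy-chain count in the same libraries. H2-D1 takes 62.1% and 66.5% in the knockout-labelled pair and 46.5% and 45.4% in the controls, and the B2m ratio is 0.756 and 0.613 against 0.463 and 0.342.

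Class I heavy chains are similar in sequence, and how the authors counted reads shared between them is not given in the sources used here. Of the stretches of 50 bases in the gencode vM1 protein-coding transcripts, H2-T22 shared 40.6% exactly with at least 1 other gene, and 34.9% of its stretches were shared with H2-T10. H2-T23 shared 14.8%, H2-D1 12.8% and H2-K1 7.29%, and 5.76% of the H2-K1 stretches were shared with H2-D1. The value of H2-T22 in particular is therefore uncertain. B2m shared none of its 811 stretches, Tap1 0.834% and Tap2 0.708%.

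Levels were compared between genes as CPM per kilobase of exon sequence. B2m was the highest in each library, with 272 and 102 CPM per kilobase in the knockout-labelled pair and 45.1 and 50.5 in the controls. H2-D1 followed with 74.2 and 36.7 against 15.1 and 22.3. In the controls H2-T23 (10.4 and 15.2) overlapped H2-D1 narrowly, and Tapbp (12.1 and 9.86) overlapped H2-T23. H2-K1 (3.36 and 6.19), H2-T22 (1.72 and 2.75), Tap2 (1.02 and 1.16) and Tap1 (0.152 and 0.185) came next in that order without overlap. In the knockout-labelled libraries Tap1 had 2.46 and 0.516 and Tap2 2.22 and 1.63, so these neighbours overlapped there.

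Genes that supply peptide and help in loading had a median log2 fold change of 0.13, below the 0.95 of the members. Of 22 listed, 20 were measured, 0 passed in edgeR's quasi-likelihood test and 2 were higher at an unadjusted p below 0.05, a share near the 9.82% of all genes. None was lower at that level, where 2.08% of all genes were. Psme1, a subunit of the proteasome activator PA28, had 91.4 and 65.3 CPM in the knockout-labelled pair and 35.1 and 40.8 CPM in the controls (log2 fold change 1.05, SE 0.23, edgeR adjusted p = 0.276). Psme2, also a PA28 subunit gene, had a log2 fold change of 0.19 (SE 0.19). The ER chaperone gene Hspa5 had 1843 and 541 CPM against 485 and 422 CPM (log2 fold change 1.40, SE 0.56). Ide, the gene of insulin-degrading enzyme, and Thop1, a cytosolic peptidase gene, had log2 fold changes of -0.49 and -0.44. Calr, whose product calreticulin sits in the loading complex, had 254 and 245 CPM against 252 and 236 CPM.

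Factors that act on class I promoters were measured for 20 of 22 listed genes. None passed in edgeR's quasi-likelihood test, and 7 of the 20 were higher at an unadjusted p below 0.05, against 9.82% of all genes, with none lower, against 2.08%. Irf7, an interferon regulatory factor, had 116 and 51.3 CPM in the knockout-labelled pair and 5.22 and 6.49 CPM in the controls (log2 fold change 3.83, SE 0.44, edgeR adjusted p = 0.0747). Irf9, the DNA-binding subunit of the interferon-stimulated complex, had 92.1 and 106 CPM against 39.9 and 34.0 CPM (1.42, SE 0.20, adjusted p = 0.105), and was the one of these whose knockout-labelled replicate 2 was above replicate 1. Relb, an NF-kB subunit, had 11.4 and 5.47 CPM against 0.508 and 1.06 CPM (log2 fold change 3.39, SE 0.56). The control values of Relb were 14 and 50 counts, so it stands in the table mainly through the knockout-labelled libraries. The RFX subunit genes Rfx5, Rfxap and Rfxank had log2 fold changes of -0.23, 0.11 and 0.28, and these were chosen after their values were seen. The list median was 0.26.

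Of 25 other class I and class I-like chains 3 were measured, and none passed. Fcgrt, the heavy chain of the neonatal Fc receptor, had 0.522 and 0.752 CPM in the knockout-labelled pair and 2.1 and 1.08 CPM in the controls (log2 fold change -1.29, SE 0.51, edgeR adjusted p = 0.419). The knockout-labelled values of Fcgrt were 16 and 29 counts, so it stands in the table through the controls and its direction was partly fixed. Cd1d1, a lipid-presenting chain, had 2.48 and 2.25 CPM against 1.41 and 1.42 CPM, and H2-T24 had 74.0 and 52.4 CPM against 52.0 and 41.3 CPM. Of 14 class II presentation genes 3 were measured, and none passed. H2-Ab1, a class II beta chain, had 3.72 and 1.79 CPM in the knockout-labelled pair and 0.435 and 1.37 CPM in the controls (log2 fold change 1.56, SE 0.65). Ifi30, a lysosomal thiol reductase gene, had a log2 fold change of -0.27, and the protease gene Ctss had -0.40.

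**Figure D4:**
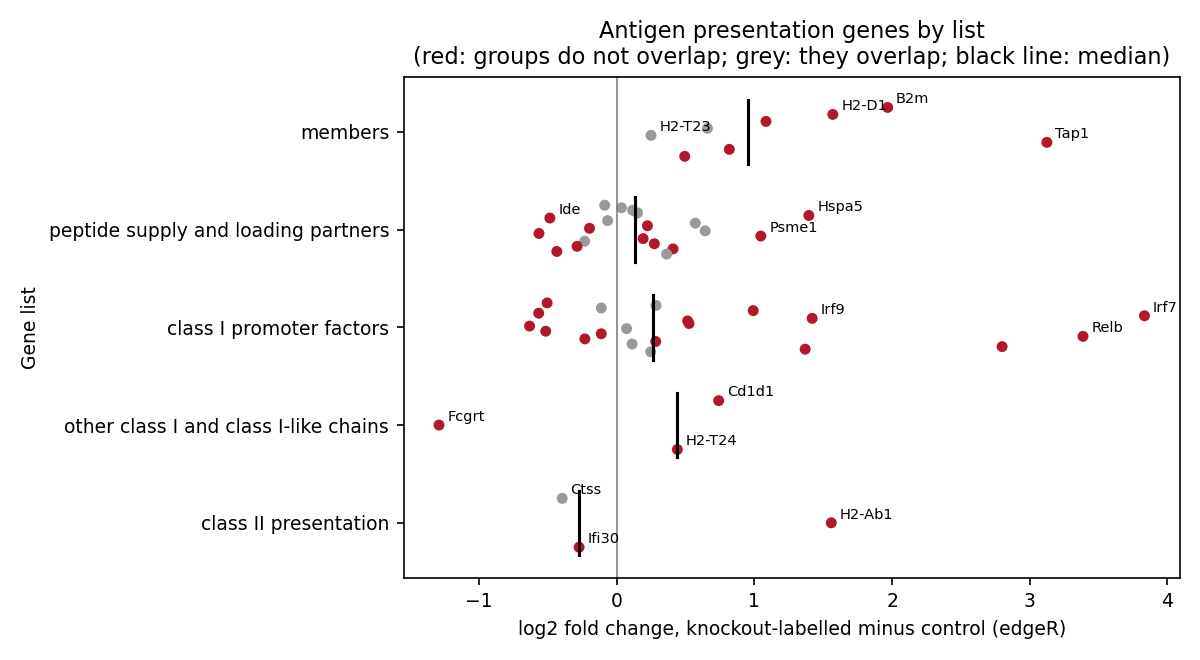
Log2 fold change (knockout-labelled minus control, edgeR) of each measured gene by list, red where the groups do not overlap, with the list median as a black line. Medians are 0.95 for the members, 0.13 for peptide supply and loading partners and 0.26 for promoter factors.

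Markers of other cell types were read because sorted cells can hold some of them, and bulk values cannot tell fewer cells of a type from less RNA per cell. Of the neutrophil and mast cell list 8 genes were measured, none of them a mast cell gene. They summed to 309 CPM in knockout-labelled replicate 1, against 38.4 in replicate 2 and 41.9 and 46.2 in the controls. The granule gene S100a9 had 113, 12.6, 11.7 and 15.1 CPM in the same order, and the leukocyte gene Ptprc had 9.56, 1.94, 2.03 and 1.54 CPM. Replicate 1 is also the library with the highest value of each class I member, and the part of these cells in its values was not tested. In replicate 2 the neutrophil sum was below both controls. Of the 8 members, 6 were above both controls in that library, H2-K1 narrowly, while H2-T22 lay between the controls and H2-T23 below them.

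The 10 megakaryocyte genes summed to 197 and 121 CPM in the knockout-labelled pair and 68.2 and 99.1 CPM in the controls, and 7 of the 10 were higher in both (27.4% of all genes were). The 7 endothelial and stromal genes summed to 30.7 and 34.1 CPM against 16 and 14.4 CPM, and 5 of them were higher in both, against the same 27.4% of all genes, among them Pecam1 with 11.4 and 4.54 CPM against 1.05 and 1.73 CPM. Macrophage genes went the other way, with 8 of 14 lower in both knockout-labelled libraries (26.7% of all genes were). Among these, Cd5l had 0.163 and 0.959 CPM against 13.6 and 4.99 CPM. Cd5l, Vcam1, C1qa and Axl were below 1 CPM in both knockout-labelled libraries. They stand in the table through the controls, so the level needed to enter it partly fixed their direction. The sums of the macrophage list (111 and 140 against 191 and 125 CPM), the lymphoid list of 2 genes and the hepatoblast list of 11 genes overlapped. Most of the macrophage sum came from Slc40a1 (57.2 and 107 against 110 and 80.7 CPM) and Lyz2 (43.1 and 8.32 against 9.68 and 10.9 CPM). Both of these overlapped between the groups, so that sum says little about the other macrophage genes. The 4 stem and progenitor genes summed to 134 and 79.7 CPM against 77.4 and 83.5 CPM. No measured marker had 0 counts in a library. None of these lists had a gene that passed in edgeR's quasi-likelihood test, and their part in the class I values was not tested.

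**Figure D5:**
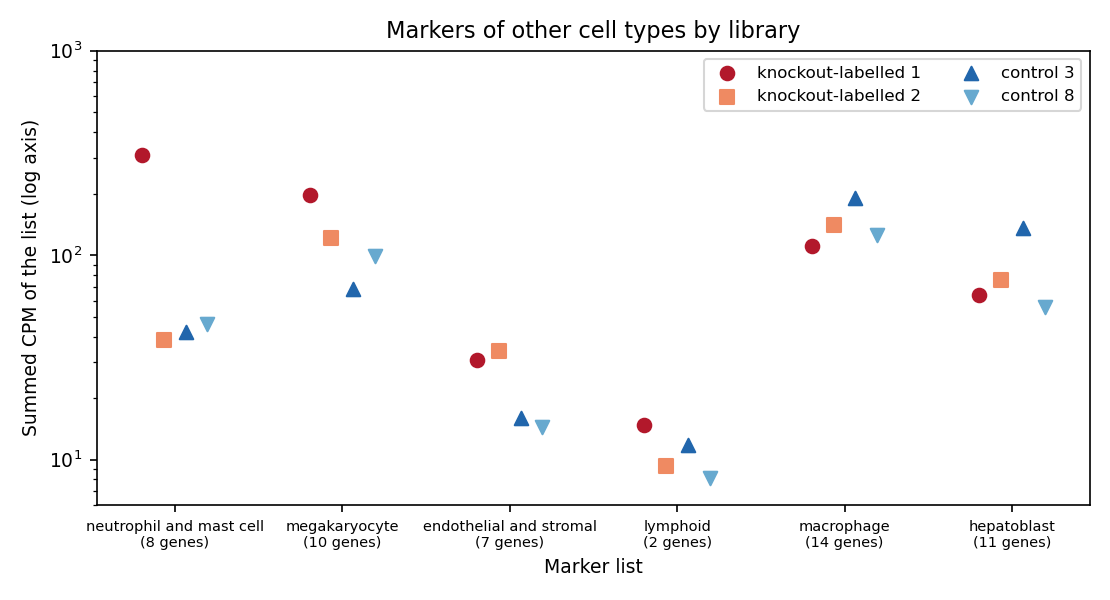
Summed CPM of the TMM-scaled library (log axis) over the measured genes of 6 marker lists, with 1 point per library. The sum of the neutrophil and mast cell list, which had no measured mast cell gene, is 309 CPM in knockout-labelled replicate 1. It is 38.4 to 46.2 CPM in the other 3 libraries, while the megakaryocyte and endothelial sums are higher in both knockout-labelled libraries.

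The genes whose pattern over the 4 libraries was most like the mean pattern of the 8 members were Pcyt2, Dtx3, Smpdl3a, Samsn1 and Fam46a. Likeness was the root mean square distance between centred log2 CPM profiles, among the 9633 genes whose mean log2 CPM was 1 or more. The distances ran from 0.0444 (Pcyt2) to 0.0595 (Fam46a), while those of the members ran from 0.184 (H2-K1) to 0.873 (Tap1). Pcyt2, an enzyme gene of phosphatidylethanolamine synthesis, had 172 and 76.1 CPM in the knockout-labelled pair and 48.1 and 58.6 CPM in the controls. With 4 libraries and this many genes close profiles are easily found, and the order is a description only.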

How the data were processed

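Per the file headers, the authors deposited unnormalised whole-number counts for each gene beside their own p-value and adjusted p-value. The submitters' processing notes name TopHat2 2.0.8, Bowtie2 2.1.0.0, HTSeq, edgeR and limma with the builds mm9 and NCBIM37, without a role for each. Strand and the handling of shared reads are not given in the sources used here. Groups came from the sample titles. Counts were fitted in edgeR 4.0.16 (R 4.3.3) with filterByExpr, which removed 0 genes, TMM scaling, glmQLFit with robust=TRUE and the default legacy option, and glmQLFTest (two-sided). Benjamini-Hochberg adjustment ran over all 10716 genes with a threshold of 0.05, leaving 2 residual degrees of freedom. The SE is the absolute log2 fold change over the square root of F. CPM use the TMM-scaled library, and for profiles log2 CPM had a prior of 2 counts. The fit was also run on simulated data, whose outcome is not given here, so no conclusion rests on it. Positions, exon lengths and shared stretches came from gencode vM1, and promoters from RefSeq.

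The members, gene lists and tests were chosen with earlier results of these data known. The text names the members, up to 4 genes of each pathway list with the smallest unadjusted p, and further examples chosen after their values were seen (Calr, Psmb10, Psme2, the RFX genes and single cell type markers). Where that rule picked an item withheld for evaluation, it is not reported here. Alternatives were RLE scaling, no scaling, no filter, a stricter filter, DESeq2 1.42.0, limma-voom (limma 3.58.1), the likelihood ratio test, legacy=FALSE, robust=FALSE and leaving out each library.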

Additional observations from a re-analysis of the deposited data

How the results depend on the processing

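Over 13 alternatives the 8 members gave 104 log2 fold changes, of which 103 were above 0 and 14 passed an adjusted p of 0.05. The 1 that reversed was H2-T23 without knockout-labelled replicate 1 (-0.79, against 0.84 without replicate 2). All alternatives reuse the same libraries, so these 104 values are not independent. The fit with no filter had to equal the main fit because filterByExpr removed 0 genes, and robust=FALSE changed no member's log2 fold change. Members called, 0 with edgeR's quasi-likelihood test, numbered 3 with DESeq2, 3 with the likelihood ratio test, and from 0 to 7 when 1 library was left out (1 without knockout-labelled replicate 1, 7 without replicate 2). All genes called, 11 in the same test, numbered 87 without library scaling, 374 with DESeq2, 349 with the likelihood ratio test, and from 27 (without control replicate 8) to 3492 (without knockout-labelled replicate 2) when 1 library was left out, with 143 and 41 when knockout-labelled replicate 1 and control replicate 3 were dropped. The members' median ran from 0.54 without knockout-labelled replicate 1 to 1.30 without control replicate 8. Why the counts moved was not tested. No paired analysis was possible because the groups share no replicate number. Depth limits Tap1 most, which had 23 and 48 counts in the controls.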
